A study of Mus musculus with 15 samples.

Results

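The 10 genes described here belong to the tumour necrosis factor (TNF) and TNF receptor superfamily, were chosen by symbol as molecules that T cells carry on their surface, and were followed in normal and malignant mouse T cells. They were the receptors Tnfrsf4 (OX40), Tnfrsf9 (4-1BB), Tnfrsf18 (GITR) and Cd27, and the ligands Cd40lg (CD40 ligand), Fasl (Fas ligand), Tnfsf8 (CD30 ligand), Tnfsf10 (TRAIL), Tnfsf11 (RANK ligand) and Tnfsf14 (LIGHT). All 10 were on the array and all 10 passed the filter on low signals, among 18193 genes in all, of which 11902 were tested. Listed genes count as matched where a probe set carried their symbol alone. A gene not matched was not analysed and may still be on the array.

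Receptors of this superfamily are clustered by ligands that are themselves trimers on neighbouring cells. OX40, 4-1BB, GITR and CD27 recruit TRAF adaptors and act through NF-kB to sustain T cells after antigen contact, whereas Fas and the TRAIL receptor hold a death domain and can start apoptosis through caspase-8. CD40 ligand is the signal by which helper T cells license B cells, dendritic cells and macrophages.

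Each array held RNA of 1 sample: 3 came from resting normal T cells, 3 from normal T cells after activation in vitro, and 9 from mouse peripheral T cell lymphomas, numbered mPTCL 1 to mPTCL 9. All 3 groups shared a p53 KO genotype on the C57BL/6 background, so p53-sufficient cells were not part of the design. The lymphomas grew from p53 KO T cells injected into CD3KO mice and were sorted from liver. CD3KO hosts lack their own T cells but keep B, NK and myeloid cells. The normal T cells came from p53 KO mice 5 weeks old and were sorted from liver or spleen. The growth protocol of the normal samples mentions repeated injection with PBS or heat-killed pneumococci and does not say which of them received either. The stimulus and duration of the activation, the age of the lymphoma hosts and whether replicates were separate animals are not given in the labels. The p-values thus rest on array-to-array spread, some of which may be technical.

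Levels are log2 of the deposited intensity after values under 32 were raised to 32, so that 5 is the floor of the scale, and they can be compared between arrays for 1 gene but not between genes. A gene was called where limma gave a Benjamini-Hochberg adjusted p under 0.05 over all genes tested and the groups differed by at least 2-fold. The number of arrays limits the precision. Median intensity ran from 91.7 to 99.2 in resting, from 110 to 118 in activated and from 68.0 to 116 in lymphoma arrays. Actin 3′ over 5′ signal, a measure of RNA integrity, ran from 1.26 to 1.498, from 1.49 to 1.54 and from 1.47 to 2.65 in the same order. The Gapdh ratio ordered the normal groups the other way, with 1.86 to 2.21 in resting and 1.26 to 1.36 in activated arrays, and 1.26 to 2.10 in lymphomas. Since a software version is stated for the lymphomas alone and a 50 ng amplification kit for the normal cells alone, processing and group cannot be told apart in the lymphoma comparisons.

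The T cell label was checked on the 7 of 8 T cell markers that were matched to a probe set. Their mean was 13.01 to 13.28 in resting, 12.74 to 12.83 in activated and 9.10 to 12.47 in lymphoma arrays. Cd3e was at 5.68 in mPTCL 3, at the floor in mPTCL 4 and at 9.03 in mPTCL 5, and between 10.85 and 12.28 in the other lymphomas. Markers of host cells also differed. The mean of 11 neutrophil markers of 12 listed was at most 5.90 in a normal array and 8.03 to 11.90 in mPTCL 1, 2, 4, 5, 8 and 9, the lymphomas more than 2 units above the highest normal array. mPTCL 6, at 7.84, lay just under that line. The mean of 11 B cell markers of 12 listed ran from 6.86 to 8.57 in normal arrays and was 10.52 in mPTCL 1, 11.17 in mPTCL 5 and 8.68 or less in the others. The 11 macrophage markers averaged 6.96 to 7.43 in resting, 5.60 to 5.67 in activated and 5.504 to 10.16 in lymphoma arrays, the last of these in mPTCL 4. In sorted bulk samples, fewer cells of a type and less RNA per cell cannot be told apart.

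Several of these genes lie side by side in the mouse genome. In the RefSeq annotation of GRCm38.p6, no other protein-coding gene lies between Tnfrsf4 and Tnfrsf18, between Fasl and Tnfsf18, between Tnfsf8 and Tnfsf15, or between Tnfsf14 and Cd70. RefSeq promoter windows of 300 bases were matched by symbol for 9 of 10 members. To show the DNA in front of a member that lay below all normal arrays in every lymphoma, of the one with the widest range among lymphomas, and of the one with the highest single lymphoma value relative to normal cells, the bases before the first annotated start of Cd27 (chr6:125237137-125237277, minus strand, 141 bases), Fasl (chr1:161788496-161788745, minus strand, 250 bases) and Tnfrsf9 (chr4:150919905-150920154, plus strand, 250 bases) are printed 5′ to 3′.
Cd27: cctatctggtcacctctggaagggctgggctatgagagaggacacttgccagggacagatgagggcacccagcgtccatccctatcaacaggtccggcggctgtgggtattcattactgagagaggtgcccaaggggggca
Fasl: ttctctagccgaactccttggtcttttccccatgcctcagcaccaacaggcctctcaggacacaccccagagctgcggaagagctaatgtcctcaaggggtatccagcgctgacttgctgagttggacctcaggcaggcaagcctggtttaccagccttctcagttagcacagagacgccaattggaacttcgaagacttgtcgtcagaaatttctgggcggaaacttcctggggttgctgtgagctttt
Tnfrsf9: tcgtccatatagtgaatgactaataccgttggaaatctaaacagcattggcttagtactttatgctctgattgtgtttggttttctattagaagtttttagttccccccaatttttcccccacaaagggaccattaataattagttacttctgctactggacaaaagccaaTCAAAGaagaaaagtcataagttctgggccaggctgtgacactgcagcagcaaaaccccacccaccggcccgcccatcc

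Capitals mark a match to 1 of 4 motifs searched on both strands: the NF-kB consensus, the AP-1 motif TGANTCA, the Runx motif TGTGGT and the TCF motif TCAAAG. Among 32851 promoter windows of the same 300 bases, 8.46% held the NF-kB, 7.81% the AP-1, 16.8% the Runx and 16.0% the TCF motif. Of the 10 member windows, NF-kB matches were found in 1, the window of a later Tnfrsf9 start, as 2 overlapping matches. The first of them lies 34 bases before that start at chr4:150927946-150927975 on the plus strand and reads as follows, with the match in capitals.
Tnfrsf9, later start: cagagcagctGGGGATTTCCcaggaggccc

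The same window also held an AP-1 and a Runx match, as did that of Tnfsf14, and the window of Cd27 held a TCF match beyond the part printed. A match is a description of the letters and not evidence of binding.

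Lymphomas carried less Cd27, Cd40lg and Tnfsf8 RNA than either kind of normal T cell, and less Tnfrsf4 than activated cells, while none of the 10 genes was called higher in them. In activated against resting cells Tnfsf11 was the single gene called. Of the 10 members, 3 were called lower in lymphomas than in resting cells, where 6.84% of all genes tested were called lower and 7.03% higher. Against activated cells 4 were called lower, where 8.28% of all genes were lower and 7.04% higher. In activated against resting cells 1 was called lower, where 4.23% were lower and 8.45% higher. Taking both directions together, 13.9%, 15.3% and 12.7% of all genes were called in these comparisons. With no member called higher by limma, none was higher at an unadjusted p under 0.05 in either lymphoma comparison, and 3 were in activated against resting cells. The median difference of the 10 members was -0.69 in lymphomas against resting, -0.77 against activated and 0.02 in activated against resting cells, beside -0.02, -0.08 and 0.02 over all genes. The adjusted p alone passed the same number of members in the lymphoma comparisons, 3 against resting and 4 against activated cells, beside 18% and 20.6% of all genes. Lymphomas did not overlap with resting cells for 3 members and with activated cells for 2, beside 19.4% and 22.1% of all genes. Any 2 of the 3 comparisons share the arrays of 1 group and are not independent of each other.

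T cell markers were lower in lymphomas as well. Of 7 tested, 3 were called lower against resting cells and 2 against activated cells, beside 6.84% and 8.28% of all genes. The median differences of these markers were -2.12 and -1.89. Their part in the lower levels of Cd27, Cd40lg, Tnfsf8 and Tnfrsf4 was not tested.

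Where arrays were centred on their medians in place of the deposited scale, the median difference of all genes moved from 0.02 to -0.25 in activated against resting and from -0.08 to 0.30 in lymphomas against activated cells. The share of called genes that were higher moved with it, from 66.6% to 37.6% and from 45.9% to 76.6%. Cd27 and Tnfsf8 remained called lower in both lymphoma comparisons under that scaling, and Cd40lg in that with resting cells.

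**Figure D1:**
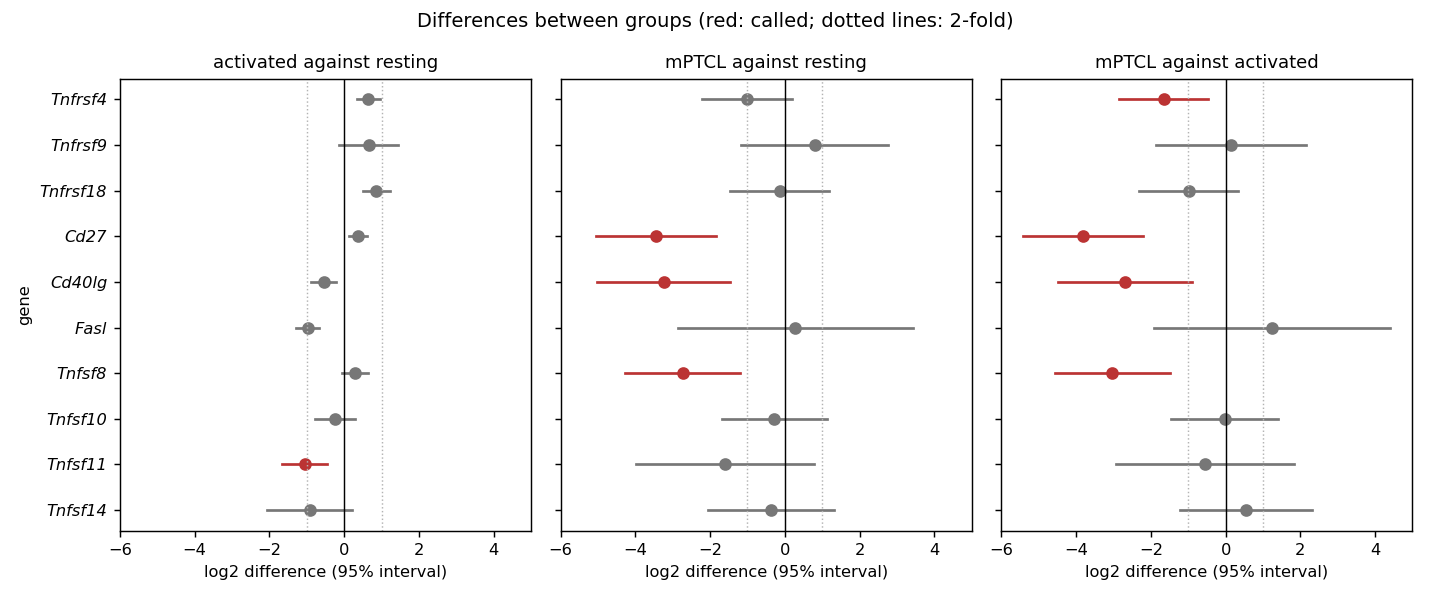
Differences in log2 level between groups for each of the 10 genes (points) with 95% intervals from limma (lines), 1 panel per comparison, with called genes in red and dotted lines at 2-fold. Cd27, Cd40lg and Tnfsf8 lie to the left of 0 in both lymphoma panels. For each gene the intervals are wider there than in the panel of activated against resting cells, least so for Tnfsf14 (-2.07 to 0.22 in that panel).

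Cd27 is the receptor for CD70 and supports naive and memory T cells. Its level was 11.01, 11.07 and 10.82 in resting arrays 1 to 3 and 11.47, 11.29 and 11.28 in activated arrays 1 to 3. In lymphomas it ran from the floor in mPTCL 6 over a median of 7.64 to 10.03 in mPTCL 3. All 9 lymphomas lay below all 6 normal arrays. It fell by 3.44 ± 0.74 log2 units against resting cells (SE, n = 9 and 3, at least 10.9-fold lower, limma adjusted p = 0.0078) and by 3.82 ± 0.74 against activated cells (at least 14.1-fold lower, limma adjusted p = 0.0042). Both calls held when any single array was left out. They were lost when the 6 lymphomas with high neutrophil markers were left out, with 3 lymphomas remaining (-3.41, limma adjusted p = 0.1005, and -3.79, limma adjusted p = 0.0698).

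Tnfrsf4, an activation-induced receptor that regulatory T cells also carry, was at 10.59, 10.29 and 10.43 in resting arrays and 10.92, 11.29 and 11.04 in activated arrays. In lymphomas it ran from 7.64 in mPTCL 8 over a median of 9.63 to 11.08 in mPTCL 5. Below all normal arrays lay 7 lymphomas, while mPTCL 4 (10.44) and mPTCL 5 lay within their range. Against activated cells it fell by 1.66 ± 0.55 log2 units (3.16-fold, SE, n = 9 and 3), with a limma adjusted p = 0.0497. That call was lost without activated replicate 1, 2 or 3 (limma adjusted p = 0.127, 0.168 and 0.141), without mPTCL 1, 2, 3, 6, 7 or 9 (0.0548 to 0.0736), at a floor of 16 (0.0510), where its own levels do not change, with no filter (0.0841), and after centring on array medians (-1.28, 0.0672). Against resting cells the difference of -1.01 ± 0.55 was not called (limma adjusted p = 0.222), though it was without the 6 lymphomas with high neutrophil markers (-1.37, 0.0361) and with array weights (0.0430).

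Tnfrsf18, the neighbour of Tnfrsf4, was at 10.73, 10.36 and 10.84 in resting and 11.43, 11.69 and 11.38 in activated arrays. In lymphomas it ran from 9.09 in mPTCL 5 over a median of 10.49 to 12.03 in mPTCL 1. The lymphomas lay on both sides of the normal range, with 2 above, 4 below and 3 within. Differences against resting (-0.13, 95% interval -1.45 to 1.19) and activated cells (-0.99, -2.31 to 0.33) were not called. Tnfrsf4 and Tnfrsf18 did not run in 1 order among the lymphomas, since mPTCL 5 had the highest Tnfrsf4 and the lowest Tnfrsf18.

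Tnfrsf9, which marks recently stimulated T cells, was at 9.66, 9.26 and 9.09 in resting and 9.30, 10.55 and 10.13 in activated arrays. Lymphomas ran from 7.56 in mPTCL 7 over a median of 10.14 to 13.56 in mPTCL 9, a range of 6.00 log2 units. Of the 9 lymphomas, 4 lay above all normal arrays, 3 below and 2 within. The mean difference was 0.80 against resting (95% interval -1.17 to 2.77, limma adjusted p = 0.573) and 0.14 against activated cells (-1.86 to 2.14, limma adjusted p = 0.928). A second probe set for the gene followed the one used, with a Pearson r of 0.99 across the 15 arrays, and the third was at the floor in 10 arrays.

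**Figure D2:**
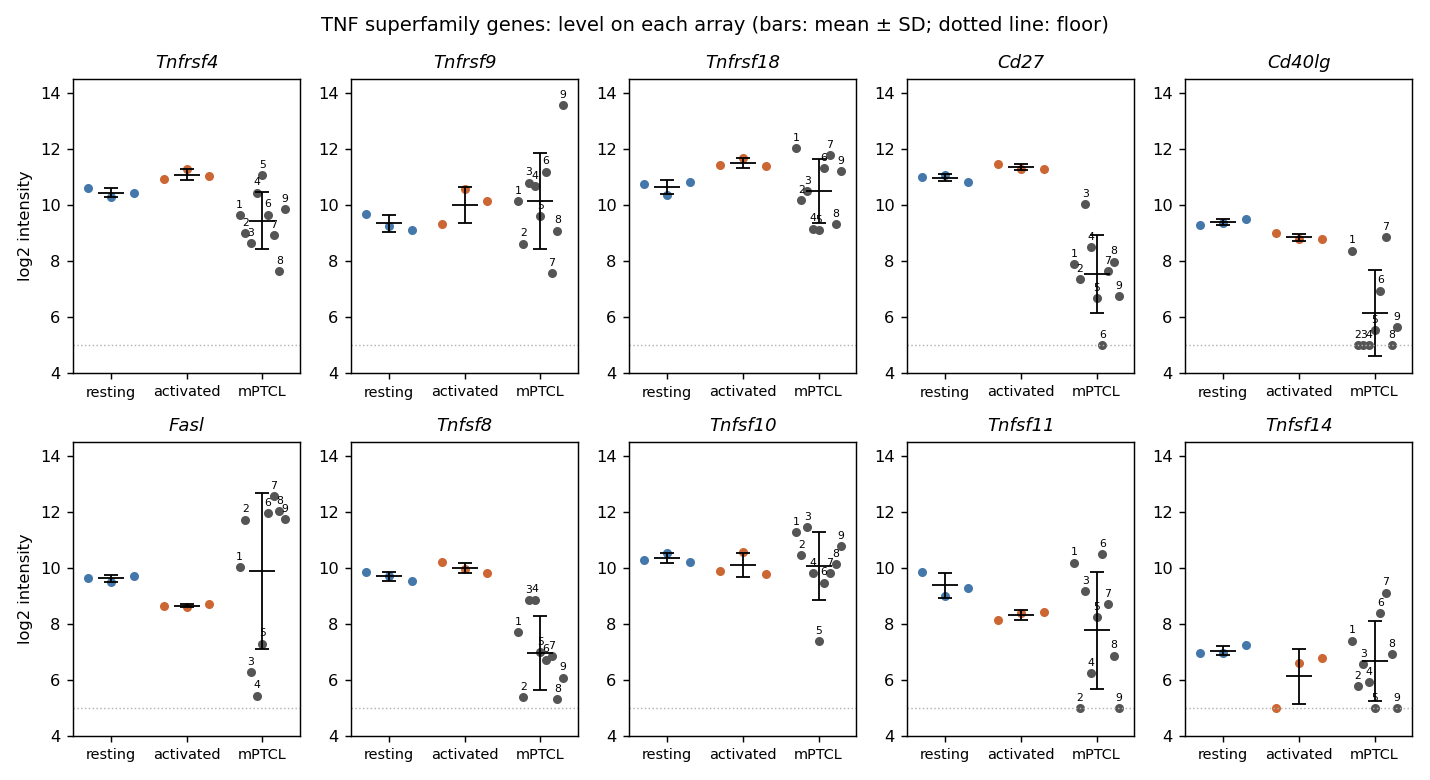
Level of each of the 10 genes on each array (points, log2 intensity), for resting and activated T cells (n = 3 each) and lymphomas (mPTCL, n = 9, numbered), with bars for the mean and SD and a dotted line at the floor. The 9 lymphomas spread over 2.94 log2 units for Tnfrsf18 and over 7.13 for Fasl, and among the normal arrays Tnfsf14 runs from the floor to 7.23.

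Among the ligands, Cd40lg was at 9.29, 9.35 and 9.51 in resting and 8.98, 8.76 and 8.78 in activated arrays. Lymphomas ran from the floor, reached in mPTCL 2, 3, 4 and 8, over a median of 5.52 to 8.86 in mPTCL 7. All lymphomas lay below the resting arrays, and only mPTCL 7 overlapped the activated ones, with mPTCL 1 next at 8.37. The gene fell by 3.24 ± 0.83 log2 units against resting (SE, n = 9 and 3, at least 9.44-fold, limma adjusted p = 0.0177) and differed by -2.69 ± 0.83 from activated cells (at least 6.47-fold lower, limma adjusted p = 0.0356). Leaving out resting replicate 1, 2 or 3 ended the first call (limma adjusted p = 0.0699, 0.0743 and 0.0785). The second call ended without activated replicate 1, 2 or 3 (0.125, 0.113 and 0.113), without mPTCL 2, 8 or 9 (0.0537, 0.0549 and 0.0508), at a floor of 16 (0.05003), with no filter (0.0662) and after centring (0.0693). Both ended without the 6 lymphomas with high neutrophil markers, with smaller differences (-2.45, limma adjusted p = 0.123, and -1.91, limma adjusted p = 0.185).

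Tnfsf8, the ligand of CD30, was at 9.87, 9.69 and 9.54 in resting and 10.20, 9.95 and 9.82 in activated arrays. Lymphomas ran from 5.31 in mPTCL 8 over a median of 6.83 to 8.87 in mPTCL 4. None of them reached the lowest normal array. It fell by 2.73 ± 0.71 log2 units against resting cells, or 6.65-fold (SE, n = 9 and 3; limma adjusted p = 0.0198). Against activated cells it fell by 3.03 ± 0.71, or 8.15-fold (limma adjusted p = 0.0109). Without resting replicate 1, 2 or 3 the first call was lost (limma adjusted p = 0.0866, 0.0811 and 0.0728), as it was without the 6 lymphomas with high neutrophil markers (-2.24 over the 3 that remained, 0.0550). The second was lost without activated replicate 1 or 2 (0.0588 and 0.0516).

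Fasl, with which cytotoxic T and NK cells kill Fas-bearing targets, split the lymphomas. It was at 9.65, 9.50 and 9.72 in resting and 8.63, 8.59 and 8.70 in activated arrays. Above every normal array lay 6 lymphomas, namely mPTCL 1 (10.02), 2 (11.73), 6 (11.94), 7 (12.57), 8 (12.03) and 9 (11.75). The others, mPTCL 3 (6.26), 4 (5.44) and 5 (7.30), lay below every normal array, and none lay within the normal range. The SD among lymphomas was 2.80, at least as high as in 99.3% of genes tested. The mean was not called against resting cells (0.27, 95% interval -2.87 to 3.42, limma adjusted p = 0.920) or against activated cells (1.25, -1.90 to 4.41, limma adjusted p = 0.566). The 3 lymphomas low in Fasl were also those lowest in Cd3e, and their T cell marker means of 9.73, 9.10 and 9.32 lay below the 10.41 to 12.47 of the other lymphomas. Means of 5 NK cell markers of 7 listed were 7.40, 7.08 and 7.73 in them and 8.99 to 11.97 in the others. The part of either marker list in the Fasl levels was not tested. The second Fasl probe set followed the first with a Pearson r of 0.99 across 15 arrays.

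Tnfsf11, which drives osteoclast formation and lymph node development, was the member called between normal states. It was at 9.86, 8.99 and 9.27 in resting and 8.12, 8.40 and 8.43 in activated arrays, without overlap. On activation it fell by 1.06 ± 0.25 log2 units, or 2.08-fold (SE, n = 3 and 3; limma adjusted p = 0.0211). The call rested on few arrays and ended without any single normal array except resting replicate 2: the difference dropped under 2-fold without resting replicate 1 (-0.81) and activated replicate 1 (-0.96), and the limma adjusted p rose to 0.0548, 0.0583 and 0.0573 without resting replicate 3 and activated replicates 2 and 3. It also ended with the mean of the gene's probe sets (-0.82, limma adjusted p = 0.0553), where the second probe set was at the floor in 9 arrays, with no filter (0.0604), with the replicate number as a block (0.0530) and with all 15 arrays in 1 fit (0.783). In lymphomas the gene ran from the floor in mPTCL 2 and 9 over a median of 8.25 to 10.50 in mPTCL 6, on both sides of the normal range, and was not called (-1.61 ± 1.11 against resting, limma adjusted p = 0.333, and -0.55 against activated cells, 0.749).

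Tnfsf10, which binds death receptors, was at 10.29, 10.54 and 10.20 in resting and 9.88, 10.58 and 9.80 in activated arrays. The lymphomas other than mPTCL 5 lay between 9.47 and 11.44, with a median over all 9 of 10.14, and mPTCL 5 stood apart at 7.37. No comparison called the gene, with 95% intervals of -1.68 to 1.12 against resting and -1.45 to 1.39 against activated cells. Its other probe sets ran with the one used at a Pearson r of 0.97 and 0.96.

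Tnfsf14, a ligand of HVEM and of the lymphotoxin beta receptor, had low signals. It was at 6.95, 6.97 and 7.23 in resting arrays and at the floor, 6.60 and 6.77 in activated arrays. Lymphomas ran from the floor in mPTCL 5 and 9 over a median of 6.57 to 9.12 in mPTCL 7. Above all normal arrays lay 3 lymphomas, namely mPTCL 1 (7.40), 6 (8.39) and 7. The gene was not called in any comparison, with limma adjusted p-values of 0.188, 0.774 and 0.661 for activated against resting, lymphomas against resting and lymphomas against activated cells.

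Smaller differences between the normal states were measured with more precision than those of the lymphomas. Of the 10 members, 6 passed the adjusted p alone, as did 30.9% of all genes tested, and 7 did not overlap between activated and resting arrays, as did 46.6% of all genes. Tnfrsf18 (0.86 ± 0.15 log2 units, limma adjusted p = 0.0075), Tnfrsf4 (0.65 ± 0.13, 0.0118) and Cd27 (0.38 ± 0.10, 0.0318) were higher in activated cells by less than 2-fold. After centring on array medians the Cd27 difference was 0.10 (limma adjusted p = 0.540), while the other 2 still passed. Fasl (-0.98 ± 0.13, limma adjusted p = 0.0026) and Cd40lg (-0.54 ± 0.14, 0.0274) were lower by less than 2-fold. Fasl passed 2-fold when arrays were brought to a common distribution by quantile normalisation (-1.08) or centred on their medians (-1.26), and without resting replicate 2 (-1.04) or activated replicate 3 (-1.01). Tnfrsf9 differed by 0.66 ± 0.33 (limma adjusted p = 0.176), with activated replicate 1 among the resting values, and by 1.00 without it (limma adjusted p = 0.0351). Stromal and endothelial markers averaged 7.63 to 8.19 in activated and 6.16 to 6.34 in resting arrays, over 7 of 7 genes. Of 6 tested, 5 were called higher, beside 8.45% of all genes. The list also held Pecam1, with means of 11.13 in resting and 11.33 in activated cells, and Cdh5, with 5.66 and 5.25. Of 9 macrophage markers tested, 6 were called lower in activated cells, beside 4.23% of all genes, with a median difference of -2.27. The part of any such cells in these differences was not tested.

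**Figure D3:**
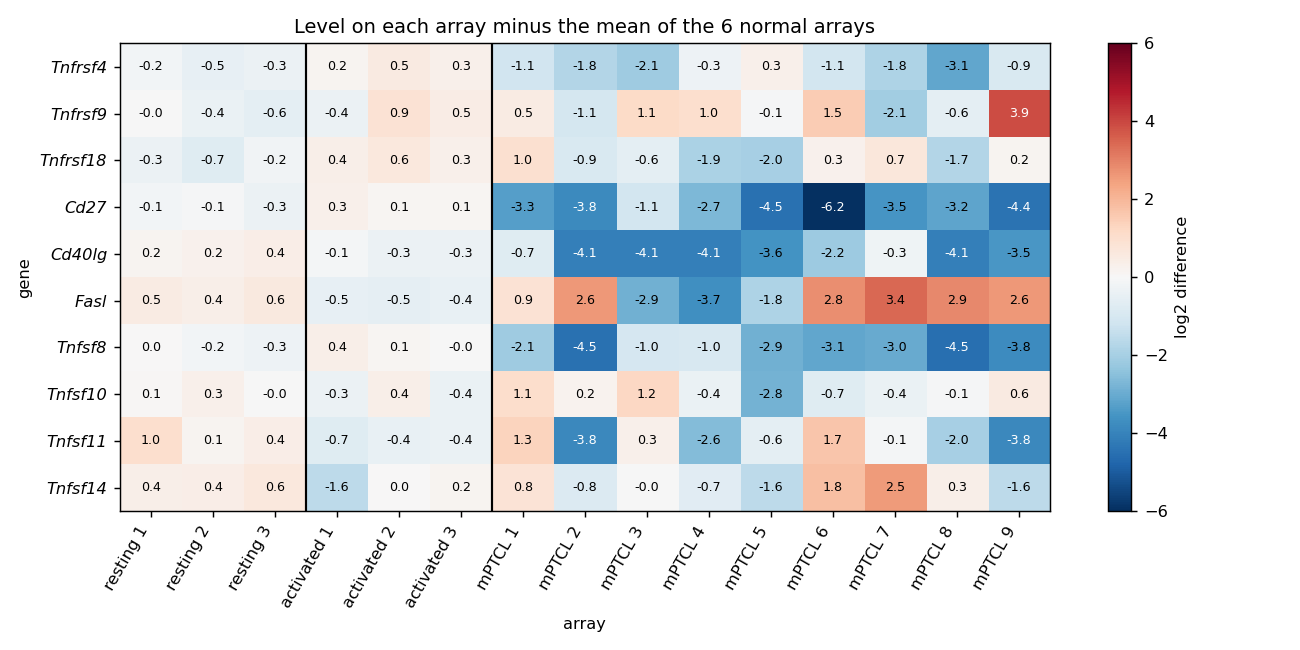
Level of each gene on each array minus its mean over the 6 normal arrays, in log2 units (red higher, blue lower, colours end at 6), with vertical lines between resting, activated and lymphoma arrays. The Cd27 and Tnfsf8 rows are blue in all 9 lymphomas, whereas the Fasl row is red in 6 and blue in mPTCL 3, 4 and 5.

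Each lymphoma had its own combination. Every member had an SD among lymphomas above the 0.60 that was the median of all genes tested, from 1.02 for Tnfrsf4 to 2.80 for Fasl. Set against the range of the 6 normal arrays, mPTCL 1 had 5 members above and 4 below, while mPTCL 2 and 8 each had 1 above and 7 below. Tnfsf14 could not count as below in any lymphoma, since activated replicate 1 was at the floor. The share of all genes outside that range was not determined, so such counts do not show whether the members differ from other genes. In mPTCL 2 and 8 the member above was Fasl. mPTCL 5 was the only lymphoma with no member above the normal range, with 6 below. mPTCL 6 and 7 joined high Fasl with the highest Tnfsf14, and mPTCL 7 had Cd40lg within the normal range while its Tnfrsf9 was the lowest of all. mPTCL 9 had the highest Tnfrsf9 beside Tnfsf11 and Tnfsf14 at the floor. mPTCL 3, with the highest Cd27 of the lymphomas, also had the highest Tnfsf10 (11.44) and, after mPTCL 4, the second highest Tnfsf8 (8.83).

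The partners of these molecules gave a further view, since a ligand and its receptor can be made by the same or by different cells. Of the 10 partners, 9 were matched to a probe set and 6 passed the filter, and Tnfsf18 was not analysed here. In lymphomas against activated cells 2 of the 6 were called lower and none higher, beside 8.28% and 7.04% of all genes. No partner was called in lymphomas against resting or in activated against resting cells, beside 13.9% and 12.7% of all genes. In each of these, limma gave 2 partners an unadjusted p under 0.05. The list's median difference was 0.50 in activated against resting cells, 0.46 in lymphomas against resting and 0.16 against activated cells. Fas, the receptor of Fas ligand, was at 8.03 to 8.09 in resting and 8.78 to 8.88 in activated arrays. Below all normal arrays lay 8 lymphomas, 3 of them at the floor (mPTCL 2, 3 and 8), and mPTCL 5 lay above at 9.59. Fas fell by 2.62 ± 0.80 log2 units against activated cells (SE, n = 9 and 3, at least 6.14-fold, limma adjusted p = 0.0344). The call was lost without activated replicate 1, 2 or 3 (limma adjusted p = 0.112, 0.118 and 0.111) or mPTCL 2, 6 or 8 (0.0511, 0.0521 and 0.0525), and with no filter (0.0638). Against resting cells the difference was -1.86 ± 0.80 (limma adjusted p = 0.122), and without mPTCL 5 alone it was -2.28 and called (limma adjusted p = 0.0061), as it was without mPTCL 1 and 5 (-2.46, 0.0036) and without the 6 lymphomas with high neutrophil markers (-2.52, 0.0140).

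Tnfrsf14, which encodes HVEM, the receptor of LIGHT, was at 7.05 to 7.71 in resting and 7.62 to 8.17 in activated arrays. It was at the floor in mPTCL 4, 5, 6 and 7 and at most 7.11 in the other lymphomas, the value of mPTCL 9. It fell by 2.05 ± 0.54 log2 units against activated cells (SE, n = 9 and 3, at least 4.15-fold, limma adjusted p = 0.0188). That call was lost without activated replicate 1, 2 or 3 (limma adjusted p = 0.0721, 0.0913 and 0.0602) and after centring (0.0502). Against resting cells the limma adjusted p was 0.0596, and the gene was called (-1.71 to -1.74) without mPTCL 1, 3 or 9.

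Cd40, the receptor of CD40 ligand on B cells and myeloid cells, reached 9.65 in mPTCL 1, 8.82 in mPTCL 4 and 10.07 in mPTCL 5, against at most 6.80 in normal arrays and 6.78 in the other lymphomas. These 3 lymphomas also had the highest B cell marker means and the highest macrophage marker means, and the part of such cells was not tested. Tnfrsf11a, the RANK receptor known from osteoclasts and myeloid cells, was at 8.86 in mPTCL 4, the lymphoma with the highest macrophage marker mean, and at 7.04 or less in all other arrays. Tnfsf4 and Tnfsf9, the ligands of OX40 and 4-1BB, were highest in mPTCL 5 (8.19 and 9.10), and neither was called. That lymphoma also had the highest B cell (11.17) and neutrophil (11.90) marker means and the highest actin 3′ over 5′ ratio (2.65). The part of these in its levels of Tnfsf4, Tnfsf9, Cd70 and Fas was not tested. Cd70 was at the floor in all 3 resting arrays and at 8.61 in mPTCL 5. It did not pass the filter, nor did Tnfrsf8 and Tnfrsf10b, whose highest values were 7.09 and 6.39.

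**Figure D4:**
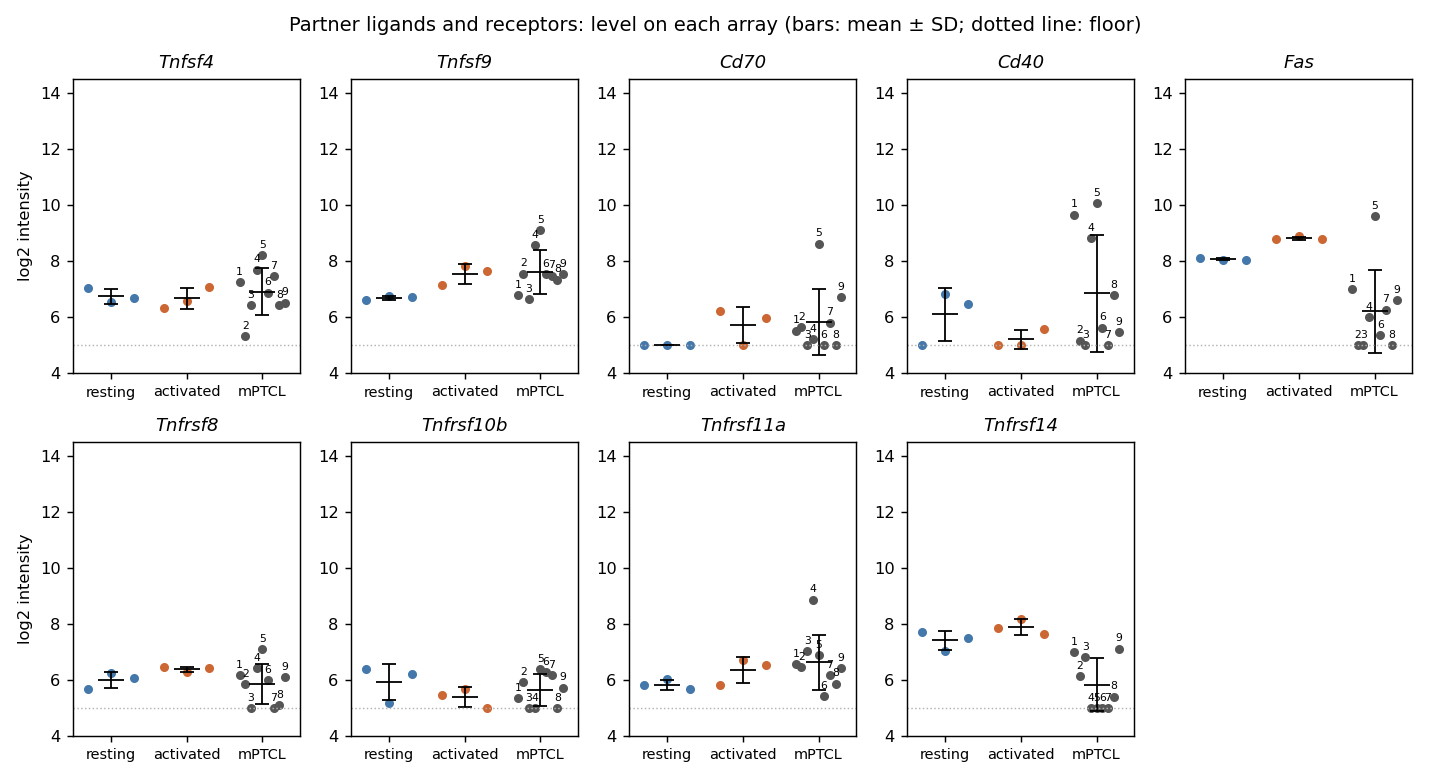
Level of each measured partner on each array (points, log2 intensity), for resting and activated T cells (n = 3 each) and lymphomas (mPTCL, n = 9, numbered), with bars for the mean and SD and a dotted line at the floor. Fas and Tnfrsf14 are lower in most lymphomas than in normal arrays, and Cd40 is high in mPTCL 1, 4 and 5 alone.

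Of 18 other receptors of the superfamily listed, 17 were matched to a probe set and 10 were tested. In lymphomas 2 were called lower against resting cells and 1 against activated cells, beside 6.84% and 8.28% of all genes, with none called higher. In activated against resting cells 1 was called higher and none lower, beside 8.45% and 4.23% of all genes. The median difference of the 10 tested was 0.16 in activated against resting cells, 0.04 in lymphomas against resting and -0.15 against activated cells. Tnfrsf22, a decoy receptor that binds TRAIL without a death domain, was at 8.59 to 8.86 in resting, 8.36 to 8.53 in activated and 5.82 to 7.43 in lymphoma arrays, with no overlap. In lymphomas it fell by 1.86 ± 0.34 log2 units against resting cells, or 3.64-fold (SE, n = 9 and 3; limma adjusted p = 0.0029). Against activated cells it fell by 1.56 ± 0.33, or 2.95-fold (limma adjusted p = 0.0068). Its calls held under all 24 alternatives of each lymphoma comparison, with differences from -2.05 to -1.70 and from -1.75 to -1.18. Tnfrsf25 (DR3), a death domain receptor that costimulates T cells, was at 9.99 to 10.48 in resting arrays and from the floor (mPTCL 8 and 9) to 9.94 (mPTCL 6) in lymphomas. It fell by 3.78 ± 1.02 against resting cells (at least 13.7-fold, limma adjusted p = 0.0225), and the call was lost without resting replicate 1, 2 or 3 (limma adjusted p = 0.0909, 0.0951 and 0.0773), with no filter (0.0521) and without the 6 lymphomas with high neutrophil markers (0.119). Against activated cells Tnfrsf25 was not called, but it was without mPTCL 1 (-3.24, limma adjusted p = 0.0249) or mPTCL 6 (-3.28, 0.0173). Tnfrsf13c, the BAFF receptor, was called higher in activated cells by 1.01 ± 0.29, from 5.64 to 6.65 (limma adjusted p = 0.0407). That call was lost at floors of 16 and 64 (limma adjusted p = 0.0693 and 0.0938) and without any one normal array except activated replicate 1 (0.0735 to 0.111). It was also lost with an offset of 16 in place of a floor (0.102), with no filter (0.0905), after quantile normalisation (0.113) or centring (0.0827), and with all arrays in 1 fit (0.812). These made up 12 of 17 alternatives. Tnfrsf13c was at most 5.78 in resting and 7.06 in activated arrays. In lymphomas it ran from 5.87 to 12.64, with a mean of 7.94. All lymphomas lay above the resting arrays, and 19.4% of all genes did not overlap between these groups. The differences of 2.30 ± 1.18 against resting (limma adjusted p = 0.1945) and 1.29 ± 1.19 against activated cells (0.459) were not called.

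Of 16 listed adaptors and death signalling genes, 14 were matched to a probe set and tested. Between activated and resting cells limma called none, though 10 had an unadjusted p under 0.05, 3 of them higher and 7 lower. The adjusted p was passed by 6, all under 2-fold, beside 30.9% of all genes by the adjusted p alone. Among the 6 were Traf1 (0.53, limma adjusted p = 0.0103) and Casp8 (-0.56, 0.0027), given here because they were called in lymphomas and not for their size. In lymphomas 3 were called lower against resting cells and 1 against activated cells, beside 6.84% and 8.28% of all genes, with none higher at an unadjusted p under 0.05 in either. The list's median difference was -0.24 on activation, -0.57 in lymphomas against resting and -0.28 against activated cells. Traf1, an adaptor of OX40, 4-1BB and other TNF receptors, was at 11.11 to 11.35 in resting and 11.59 to 11.79 in activated arrays. It was at most 9.37 in lymphomas (mPTCL 1) and at the floor in mPTCL 3. It fell by 2.86 ± 0.72 log2 units against resting (SE, n = 9 and 3, at least 7.26-fold, limma adjusted p = 0.0164) and by 3.39 ± 0.72 against activated cells (at least 10.5-fold, limma adjusted p = 0.0065). The first call was lost without resting replicate 1, 2 or 3 (limma adjusted p = 0.0672, 0.0784 and 0.0678) or the 6 lymphomas with high neutrophil markers (0.0602, with a difference of -3.74 over the 3 that remained), and the second held without any single array. Map3k14, the NF-kB inducing kinase NIK, fell by 1.60 ± 0.35 against resting cells (limma adjusted p = 0.0081), and the call was lost without resting replicate 1 or 2 (0.0527 and 0.0562). Casp8, the initiator caspase of death receptors, fell by 1.19 ± 0.28 (limma adjusted p = 0.0123), and its call was lost without resting replicate 1, 2 or 3 (0.0608, 0.0610 and 0.0537).

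Of 15 NF-kB subunits, kinases and inhibitors, 13 were matched to a probe set and tested. In neither lymphoma comparison did limma call any of them, beside 13.9% of all genes against resting and 15.3% against activated cells. At an unadjusted p under 0.05, 3 were lower against resting cells and 2 against activated cells. By the adjusted p alone, 1 was lower against resting cells, by less than 2-fold, and 0 passed against activated cells. Among all genes 18% and 20.6% did. On activation 7 of the 13 passed the adjusted p alone, beside 30.9% of all genes. In activated against resting cells, Bcl3, an atypical IkB protein, rose by 1.27 ± 0.20 log2 units (SE, n = 3 and 3, limma adjusted p = 0.0049) and Relb, a subunit of the alternative pathway, fell by 1.11 ± 0.24 (limma adjusted p = 0.0140). Bcl3 dropped to 0.99, under 2-fold, after centring on the medians, and Relb to -0.96 and -0.95 without resting replicate 2 or activated replicate 2, and neither was called with all 15 arrays in 1 fit (limma adjusted p = 0.449 and 0.583). In lymphomas against activated cells Bcl3 missed the threshold (-1.94 ± 0.65, limma adjusted p = 0.0519), and it was called without mPTCL 4 (-2.15, 0.0229) or mPTCL 5 (-2.17, 0.0176). The median difference of the list was -0.22 on activation, -0.31 in lymphomas against resting and -0.21 in lymphomas against activated cells, beside 0.02, -0.02 and -0.08 over all genes.

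Across all 15 arrays, the genes whose levels ran most like those of a member were, for Cd27, Rbck1 (Pearson r = 0.97), Utrn (0.96) and Rhog (0.96), and for Tnfsf8, Kdm5b (0.97), Vamp1 (0.97) and Mbtps1 (0.96). For Fasl they were Rpa1 (0.94), Ttc1 (0.94) and the chemokine gene Ccl5 (0.93), and for Cd40lg, Letm2 (0.93), 2810001G20Rik (0.92) and Rasgrp1 (0.92). Tnfrsf4 was closest to Hdgfl1 (0.92), Mysm1 (0.92) and Gigyf1 (0.92), and Tnfsf10 to Fam111a (0.92), B3galnt2 (0.89) and Cd1d1 (0.88). The closest for Tnfrsf18, Tnfrsf9, Tnfsf11 and Tnfsf14 reached 0.85, 0.81, 0.85 and 0.83. These values describe points that share 3 groups and were picked as the highest of 11902 genes.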

How the data were processed

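RNA of 15 samples was measured on 1-colour oligonucleotide arrays. Each deposited value is a linear intensity that the authors obtained with the MAS5 algorithm of Affymetrix Expression Console, of which version 1.1 is stated for the lymphomas, per the submitters' processing notes. Every array had a 2% trimmed mean of 500.0. Detection calls were not used here. Among 45101 probe sets, 9211 had no symbol in the platform annotation and 932 had several, and both were left out. The other 34958 had 1 symbol. The 64 control probe sets, counted within these classes, were left out too. Of the symbols, 34754 were brought up to date by gene identifier. Values were floored at 32 and logged (log2), and 1 probe set stood for each gene, that of highest mean. The test took in 11902 genes reaching 100 on 3 or more arrays, with limma 3.58.1 in R 4.3.3 (lmFit, eBayes with a trend) on the arrays of the groups compared. Folds are lower bounds wherever the lower group includes floored arrays.

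Named were all members, their partners and the called genes of 4 lists (other ligands, other receptors, adaptors, NF-kB), at most 3 per direction and comparison. Markers of 7 cell types were averaged, and hepatocyte markers averaged 5.11 to 8.08 in lymphomas and 5.40 to 6.10 in normal arrays. The members and lists were chosen with earlier results of these data known. The fits were tested on simulated data. Other settings tried were a floor of 16 or 64, an offset of 16 before log2 in place of a floor, no filter on low genes, quantile normalisation, centring, the mean of probe sets, all arrays in 1 fit, array weights, the adjusted p alone, a replicate block, and leaving out each array or the lymphomas high in neutrophil or B cell markers. Sequences are RefSeq's.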

Additional observations from a re-analysis of the deposited data

Results flagged for a closer look

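Among the 9 lymphomas, 27 genes named in the text were examined for a single array far from the rest, by the gap to the nearest other array as a share of the whole range, set against Dixon's 95% limit for 9 arrays. Chance passes this limit in about 1 of 20 groups. It was passed by 5 genes. Tnfsf10 in mPTCL 5 (7.37, nearest 9.47) had a share of 0.515. Cd70 in mPTCL 5 (8.61, nearest 6.70) had 0.530, and Fas in mPTCL 5 (9.59, nearest 6.98) had 0.569. Tnfrsf11a in mPTCL 4 (8.86, nearest 7.04) had 0.529. Traf1 in mPTCL 3 (at the floor, nearest 7.99) had 0.685.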

How the results depend on the processing

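No value of a named gene changed sign while called. Of 1557 values of 72 gene comparisons under the alternatives, 1422 kept their side of the threshold, 85 lost a call and 50 gained one. Only a called comparison could lose a call, so these totals understate how often calls were lost. On activation the Tnfsf11 call was lost in 9 of 17 alternatives and that of Tnfrsf13c in 12 of 17. In lymphomas against activated cells the Tnfrsf4 call was lost in 12 of 24 and that of Cd40lg in 10 of 24, but those of Tnfrsf22 and Traf1 in 0. The members called in activated against resting cells numbered 1. They were 0 with no filter, with the mean of probe sets, with all 15 arrays in 1 fit and with the replicate block, 2 after quantile normalisation and after centring on the medians, 6 by the adjusted p alone, and 0 to 2 with 1 array left out. Against activated cells the 4 members called became 2 at a floor of 16, with no filter, after centring and without the 6 lymphomas high in neutrophil markers, and 1 to 4 with 1 array left out. Against resting cells the 3 became 1 without those 6 lymphomas, and 1 to 3 with 1 array left out. Without the lymphomas high in B cell markers, mPTCL 1 and 5, these counts were still 3 and 4. The labels do not say whether same-numbered normal samples were paired. Deviations of same-numbered arrays correlated at -0.01, 0.05 and -0.01, and not every array was closest to its own number. With 3 arrays per group such a check cannot exclude pairing. Over all genes, calls went from 1510 to 397 with all arrays in 1 fit and to 3678 by the adjusted p alone in activated against resting cells. With array weights they went from 1651 to 2715 and from 1824 to 2946 in lymphomas against resting and against activated cells, and with 1 array left out they were as few as 778 and 916. Leaving out an array lowers the number of samples, and the cause of other shifts was not tested. Signals near the floor limit Tnfsf14, Cd70, Tnfrsf8, Tnfrsf10b and, in the normal cells, Tnfrsf13c, for which no detection calls were used.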

Other observations

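Of 8 other ligands of the superfamily listed, 5 were matched to a probe set and 3 were tested. In no comparison did limma call any of the 3, beside 12.7% to 15.3% of all genes. At an unadjusted p under 0.05, 2 were lower in activated against resting cells and 1 in each lymphoma comparison. Ltb, Lta and Tnf, which lie next to each other in the genome are given here although no call named them, so they were chosen with their values in view. Ltb, the membrane-anchored lymphotoxin beta of lymphocytes, was at 14.23 to 14.58 in resting and 14.13 to 14.38 in activated arrays. It lay below all normal arrays in the 9 lymphomas, from 6.53 in mPTCL 9 over a median of 11.98 to 13.73 in mPTCL 1. Its difference was -2.94 ± 1.11 log2 units against resting (SE, n = 9 and 3, limma adjusted p = 0.0827) and -2.82 ± 1.12 against activated cells (limma adjusted p = 0.0880). Of all genes tested, 19.4% and 22.1% did not overlap between these groups. Lta was at the floor in mPTCL 2, 7 and 9 and at 9.38 in mPTCL 5, and Tnf ran from 5.91 in mPTCL 8 to 10.75 in mPTCL 6, on both sides of the normal arrays.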
